A study of Mus musculus with 17 samples.

Results

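The dual-specificity MAP kinase phosphatases are enzymes that switch off MAP kinases, and 9 of their genes (Dusp1, Dusp2, Dusp3, Dusp4, Dusp5, Dusp6, Dusp7, Dusp10 and Dusp16) were followed through RNA-Seq of mouse peritoneal macrophages (PMs). They were taken by symbol from a table of 21683 gene rows, where each symbol names 1 row, and all 9 were among the 10451 genes abundant enough to be tested. The 17 libraries fell into 3 groups, all from C57BL/6 mice, 8 weeks old, that carry the floxed gene of IKKβ, the kinase that activates NF-κB. IKKβ F/F PMs received PBS (F/F PBS, n = 6) or the HIV protein Tat (F/F Tat, n = 6), and PMs of IKKβ ΔMye mice, in which a heterozygous LysM-Cre knock-in deletes floxed IKKβ in myeloid cells, received Tat (ΔMye Tat, n = 5). Macrophages were drawn to the peritoneum with 1 mL of 3% thioglycollate, collected after 3 days by the labels (4 days by the methods), left to attach for 4 h, and exposed to 100 nM Tat or PBS for 12 h. PMs of IKKβ ΔMye mice given PBS were not analysed here, so differences of genotype that preceded Tat cannot be separated from those under it. The study describes its libraries as biological replicates of mice, which the labels do not state.

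MAP kinases carry signals from receptors for cytokines and microbial products to transcription factors, and they are active only while both a threonine and a tyrosine of their activation loop are phosphorylated. A dual-specificity phosphatase removes both phosphates. The family divides by place and substrate. Dusp1, Dusp2, Dusp4 and Dusp5 encode nuclear enzymes whose transcripts are typically induced by the very signals they end, Dusp6 and Dusp7 encode cytoplasmic enzymes that prefer ERK, Dusp10 and Dusp16 encode enzymes that prefer the stress kinases JNK and p38, and Dusp3 encodes a small atypical enzyme that lacks the kinase-docking domain of the others. In macrophages Dusp1 is best known for ending p38 and JNK activity after bacterial stimuli and so limiting cytokine production.

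Deposited values were TPM, which count transcripts per length and relative to the library total, so levels of different genes can be set side by side, but the reads behind each value are unknown and counting error cannot be stated. Libraries summed to 889318 to 893709 TPM in F/F PBS, 899401 to 903576 in F/F Tat and 895742 to 900572 in ΔMye Tat, and 10228 to 10378, 9260 to 9405 and 9449 to 9698 genes reached 1 TPM. Ikbkb, which encodes IKKβ, was 24.5 to 30.1 TPM in F/F PBS, 21.6 to 25.4 in F/F Tat and 12.8 to 19.9 in ΔMye Tat. It was below F/F Tat in every ΔMye library. A deletion of part of a gene need not lower a value for all of it much. How complete the deletion was in these cells was not tested. All 10 macrophage markers reached a mean of 1 TPM in each group. Their summed level was 26226 to 27197 TPM in F/F PBS, 10575 to 11154 in F/F Tat and 8409 to 8696 in ΔMye Tat, most of it Lyz2, the gene that carries the Cre. Summed markers of T and innate lymphoid cells were 157.5 to 179, 150.5 to 166 and 162 to 176 TPM, nearly all Il7r, with the T cell receptor component Cd3e at means of 1.46, 0.724 and 1.79. B cell markers summed to 47.0 to 63.8, 23.8 to 27.4 and 23.1 to 35.9 TPM, and neutrophil markers, mostly S100a8, to 56.8 to 68.2, 66.6 to 77.8 and 87.4 to 106, with the neutrophil elastase gene Elane at 0 in every library. Markers of NK, mesothelial, dendritic, and eosinophil and mast cells each summed to at most 11.7 TPM. The part of these other cells in the results was not tested, and in bulk RNA fewer cells of a type and less RNA per cell cannot be told apart.

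The median tested gene differed by -0.65 on the log2 scale between Tat and PBS in F/F macrophages, by 0.22 between the genotypes under Tat, and by -0.43 between ΔMye Tat and F/F PBS. Changes of the 9 genes with Tat and between the genotypes are therefore also given after median-ratio scaling, in which every library is divided by its typical ratio to an average library, so that these medians become -0.03, 0.01 and -0.01. Fold changes are on the scale log2(TPM + 0.1), where the added 0.1 slightly shrinks changes of low genes, and a call needed an adjusted p under 0.01 (limma, Benjamini-Hochberg over all tested genes).

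For 8 of the 9 genes the RefSeq promoter table (GRCm38.p6) holds the 300 bases from 250 before to 50 after the start site. It has no entry for Dusp4. The nuclear phosphatases Dusp1 and Dusp5 both rose with Tat and were both lower in ΔMye Tat than in F/F Tat. Their promoters hold most of the matches found to motifs of factors that MAP kinase signals act on, so stretches of both are shown. Each runs 5′ to 3′ on the gene's strand from -200 to -50 relative to the start site, in a stretch that overlaps none of the gene's own annotated exons, with motif matches in capitals.
Dusp1, chr17:26508522-26508672, minus strand: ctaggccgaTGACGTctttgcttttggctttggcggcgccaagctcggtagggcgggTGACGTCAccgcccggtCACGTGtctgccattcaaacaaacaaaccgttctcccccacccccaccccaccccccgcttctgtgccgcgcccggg
Dusp5, chr19:53528945-53529095, plus strand: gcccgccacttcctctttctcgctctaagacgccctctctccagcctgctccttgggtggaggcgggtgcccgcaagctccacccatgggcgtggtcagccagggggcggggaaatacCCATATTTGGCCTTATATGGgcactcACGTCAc

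The capitals in Dusp1 mark a core of the cAMP response element, TGACGT, at -191 to -186, the complete palindrome TGACGTCA at -143 to -136, which contains the core on both strands, and the E-box CACGTG at -126 to -121. Of the 32851 promoters of this length in the table, 1.79% held the palindrome, 7.51% the core and 7.15% the E-box on either strand. Capitals in Dusp5 mark a pair of adjoining CArG boxes, the motif of serum response factor, at -82 to -73 and -72 to -63, and the core in reverse, ACGTCA, at -56 to -51. A CArG box stood in 1.63% of all promoters. The E-box also stood in Dusp2 at -109 to -104, while the promoters of Dusp3, Dusp6, Dusp7, Dusp10 and Dusp16 held none of these motifs. Dusp10 and Dusp16 nonetheless rose with Tat and were lower in ΔMye Tat, and a link of motifs to expression was not tested. Neither the AP-1 motif TGANTCA, present in 7.81% of all promoters, nor the κB motif, present in 8.46%, was found in these windows of the 8 genes, which says nothing of sites elsewhere. G and C made up 57.3% to 78.7% of the 8 promoters, against a median of 52.7% over all promoters. The shares of all promoters given above were not matched for this.

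In unstimulated PMs the atypical phosphatase Dusp3 was the most abundant of the 9, at 93.0 ± 5.12 TPM (SD, n = 6), with 48.8 ± 0.554% of their summed level. It was followed by Dusp1 (30.9 ± 2.40 TPM), Dusp4 (19.3 ± 1.84), Dusp7 (15.7 ± 1.01), Dusp6 (13.2 ± 1.13), Dusp2 (7.63 ± 0.597), Dusp16 (5.90 ± 0.402), Dusp5 (2.90 ± 0.0968) and Dusp10 (1.89 ± 0.437). The ranges of neighbours in this order did not overlap except those of Dusp7 and Dusp6, and within each of the 6 libraries Dusp7 was above Dusp6.

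**Figure D1:**
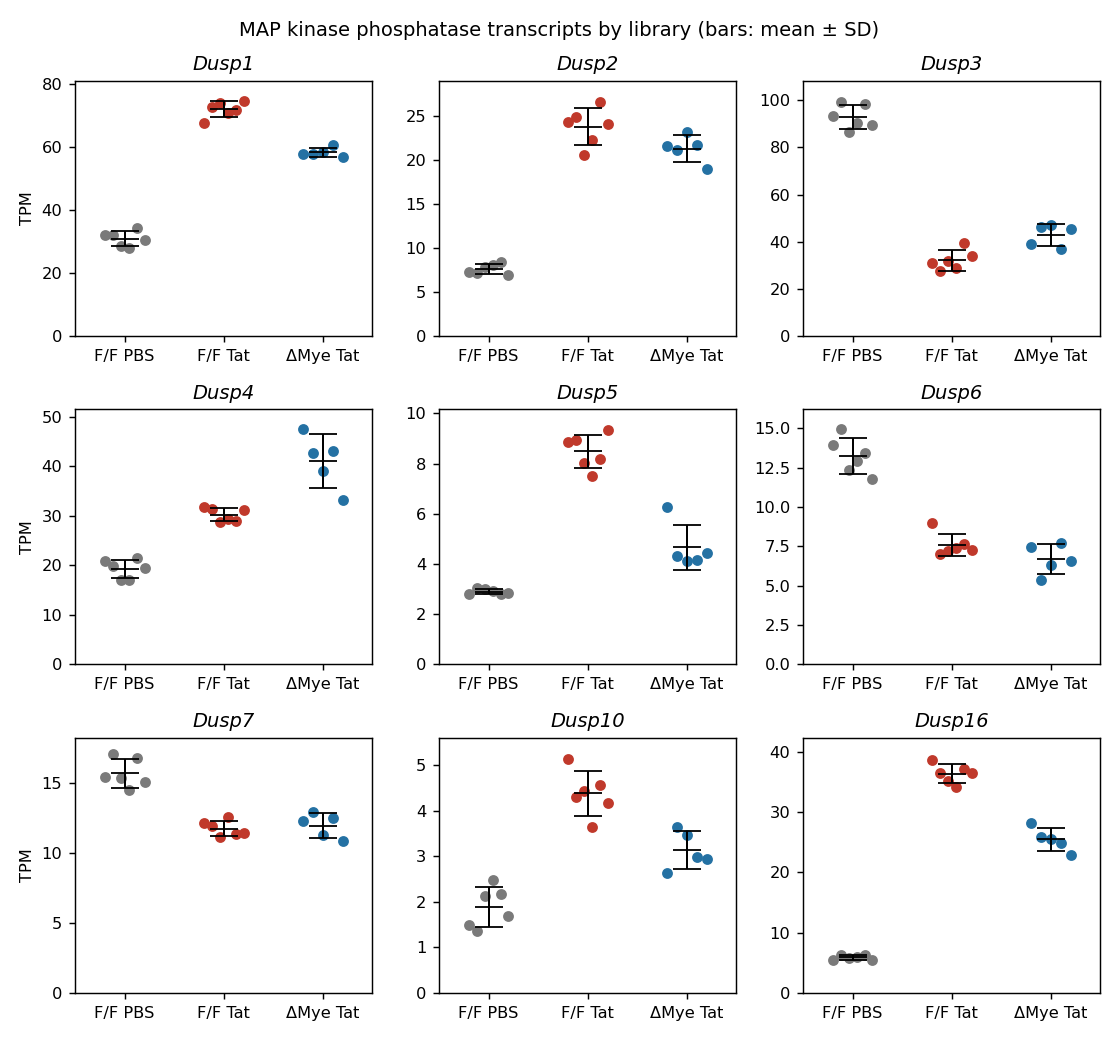
TPM (vertical axis, linear and starting at 0) of the 9 phosphatase genes in each library of F/F PBS (grey, n = 6), F/F Tat (red, n = 6) and ΔMye Tat (blue, n = 5), with bars for the mean ± SD. Dusp16 and Dusp1 sit far above PBS in both Tat groups, Dusp3 falls below it, and Dusp4 is highest in ΔMye Tat.

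The first comparison asked how Tat changed these genes in macrophages with intact IKKβ. All 4 nuclear phosphatases and both JNK and p38 phosphatases rose, and the atypical Dusp3 and the ERK phosphatases Dusp6 and Dusp7 were lower in the TPM as deposited. Thus 6 of 9 were called higher, where 17% of all tested genes were, and 3 of 9 lower, where 67.6% were. With the added condition of a fold change over 3, Dusp16 and Dusp2 were called higher (2 of 9, against 5.21% of all tested genes) and 0 of 9 lower (against 19.4%). That count depends on the scale. After median-ratio scaling Dusp1, Dusp5 and Dusp10 passed it too (5 of 9 higher, against 8.51%, and 0 of 9 lower, against 9.76%), while with a pseudocount of 0.5 or 1 Dusp2 fell short and Dusp16 alone was left. Without Tat library 11 Dusp3 passed it as the 1 of 9 lower. With no condition on the fold, after median-ratio scaling Dusp7 moved to the higher genes and Dusp6 was no longer called, which left 7 of 9 higher, against 37.1% of all tested genes, and Dusp3 as the 1 of 9 lower, against 38.1%. The median log2 fold change of the 9 genes was 1.20 (1.80 after scaling), against -0.65 (-0.03) for all tested genes.

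Dusp16, a phosphatase of JNK and p38 that shuttles between nucleus and cytoplasm, had the largest change of the 9. It was 5.47 to 6.36 TPM in the F/F PBS libraries (median 5.87) and 34.1 to 38.6 in the F/F Tat libraries (median 36.4). The lowest Tat library was far above the highest PBS library. Its log2 fold change was 2.60 (standard error 0.06, adjusted p = 4.76e-19, limma), a fold of 6.07, and 3.23 after scaling. Dusp10, the other phosphatase of this class, was a much scarcer transcript, at 1.37 to 2.48 TPM with PBS (median 1.90) and 3.65 to 5.14 with Tat (median 4.37). The groups did not overlap, although the PBS libraries varied by 23.2% (coefficient of variation), the most of any of the 9 genes there. It rose by 1.20 on the log2 scale (standard error 0.14, adjusted p = 9.88e-08, limma), or 1.80 after scaling. Since Dusp16 rose more, the ratio of Dusp16 to Dusp10 within a library, which no scaling of the library can alter, went from 3.27 ± 0.803 (SD, n = 6) to 8.35 ± 0.649 (n = 6).

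Among the nuclear phosphatases, Dusp2, first described as an activation-induced gene of lymphocytes, was 6.91 to 8.43 TPM with PBS (median 7.62) and 20.6 to 26.7 with Tat (median 24.3). Every Tat library was well above every PBS library, and the gene was 3.09-fold higher (log2 1.63, standard error 0.07, adjusted p = 1.71e-14, limma), or 2.26 on the log2 scale after scaling. Dusp5, an ERK-specific phosphatase, stood at 2.81 to 3.03 TPM with PBS (median 2.88) with a coefficient of variation of 3.34%, the smallest of the 9 genes there, and at 7.52 to 9.34 with Tat (median 8.53). The groups were far apart, and the gene rose by 1.51 on the log2 scale (standard error 0.09, adjusted p = 9.34e-12, limma), or 2.13 after scaling. Dusp1, which acts on p38, JNK and ERK, was 27.9 to 34.4 TPM with PBS (median 31.2) and 67.6 to 74.7 with Tat (median 72.2). It had become the most abundant of the 9 genes in every Tat library. The rise was 1.22 on the log2 scale (standard error 0.05, 95% interval 1.12 to 1.31, adjusted p = 2.58e-15, limma) and 1.85 after scaling. Dusp4 rose least of the 4, from 17.1 to 21.4 TPM (median 19.6) to 28.8 to 31.7 TPM (median 30.2). Its groups did not overlap either, and the change was 0.65 (standard error 0.08, adjusted p = 1.19e-07, limma), or 1.28 after scaling.

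Dusp3 went the other way. It was 86.7 to 99.4 TPM in the F/F PBS libraries (median 91.8) and 27.4 to 39.6 in the F/F Tat libraries (median 31.4). Every Tat library was far below every PBS library, and the fall held under both scalings, at -1.54 (standard error 0.08, adjusted p = 3.95e-13, limma) as deposited and -0.91 (adjusted p = 5.05e-09, limma) after median-ratio scaling.

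The cytoplasmic ERK phosphatases moved about as much as the median of all genes. Dusp6 was 11.8 to 14.9 TPM with PBS (median 13.2) and 7.01 to 8.96 with Tat (median 7.32), with no overlap. Its change of -0.80 on the log2 scale (standard error 0.09, adjusted p = 5.40e-08, limma) became -0.17 after median-ratio scaling (adjusted p = 0.0588, limma) and -0.09 after quantile normalization (adjusted p = 0.273, limma), so its fall was not separable from that of the median gene. Dusp7 was 14.4 to 17 TPM with PBS (median 15.4) and 11.1 to 12.5 with Tat (median 11.6), again with no overlap. Its log2 fold change turned from -0.41 (standard error 0.06, adjusted p = 1.54e-06, limma) to 0.21 after median-ratio scaling (adjusted p = 5.40e-04, limma), so no direction is given for it. The ratio of Dusp6 to Dusp7 within a library was 0.785 to 0.907 with PBS and 0.590 to 0.742 with Tat, which did not overlap, so Dusp6 was reduced relative to Dusp7 whatever the scaling.

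**Figure D2:**
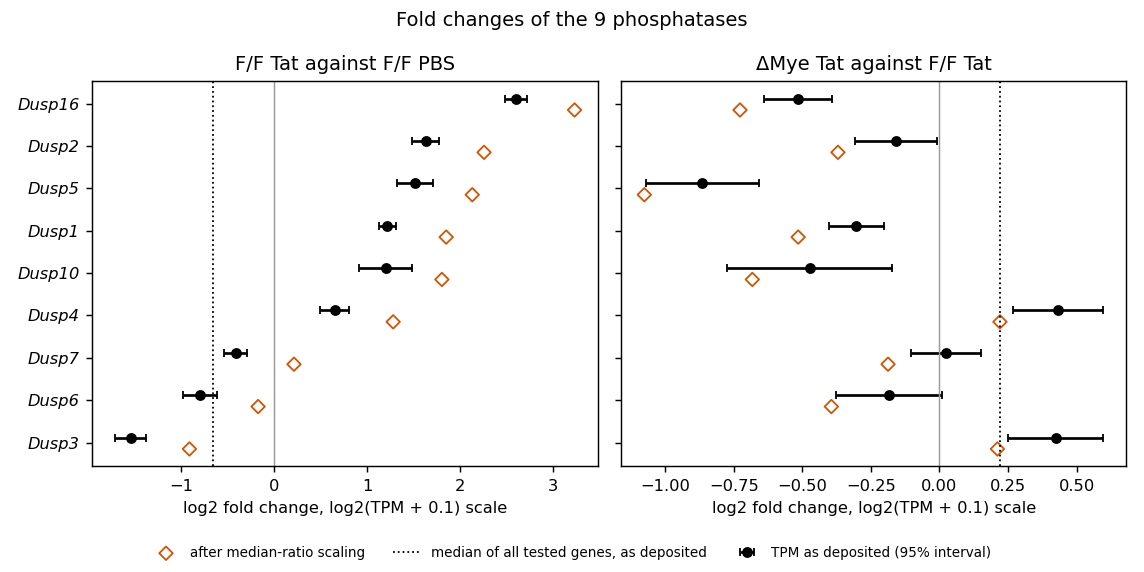
Log2 fold changes on the log2(TPM + 0.1) scale (horizontal axis) of the 9 genes with Tat in F/F macrophages (left) and in ΔMye relative to F/F macrophages under Tat (right), from the TPM as deposited (black points, 95% interval) and after median-ratio scaling (open diamonds), with the median of all tested genes as deposited (dotted line). Dusp7 changes sign with scaling on both sides. In ΔMye relative to F/F macrophages Dusp4 and Dusp3 lie right of 0 and Dusp5 lies farthest left.

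These shifts changed the make-up of the phosphatase transcripts. The summed level of the 9 genes was 190.4 ± 10.7 TPM (SD, n = 6) with PBS and 226.5 ± 7.21 (n = 6) with Tat. Dusp3 fell from 48.8 ± 0.554% to 14.1 ± 1.55% of it. The 4 nuclear phosphatases together went from 31.9 ± 0.923% to 59.4 ± 1.38%, and the pair that prefers JNK and p38 from 4.10 ± 0.385% to 18.0 ± 0.641%. The ERK pair Dusp6 and Dusp7 went from 15.2 ± 0.465% to 8.53 ± 0.544%. Shares are free of any scaling between libraries, but each depends on the others, since they sum to the whole. The order with Tat was Dusp1, Dusp16, Dusp3, Dusp4, Dusp2, Dusp7, Dusp5, Dusp6 and Dusp10. Neighbours whose ranges overlapped were Dusp16 and Dusp3 (Dusp16 higher in 5 of 6 libraries), Dusp3 and Dusp4 (Dusp3 higher in 3 of 6) and Dusp5 and Dusp6 (Dusp5 higher in 5 of 6). The ratio of Dusp1 to Dusp3 was 0.309 to 0.348 in the PBS libraries and 1.82 to 2.65 in the Tat libraries, so that the more abundant of this pair changed.

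**Figure D3:**
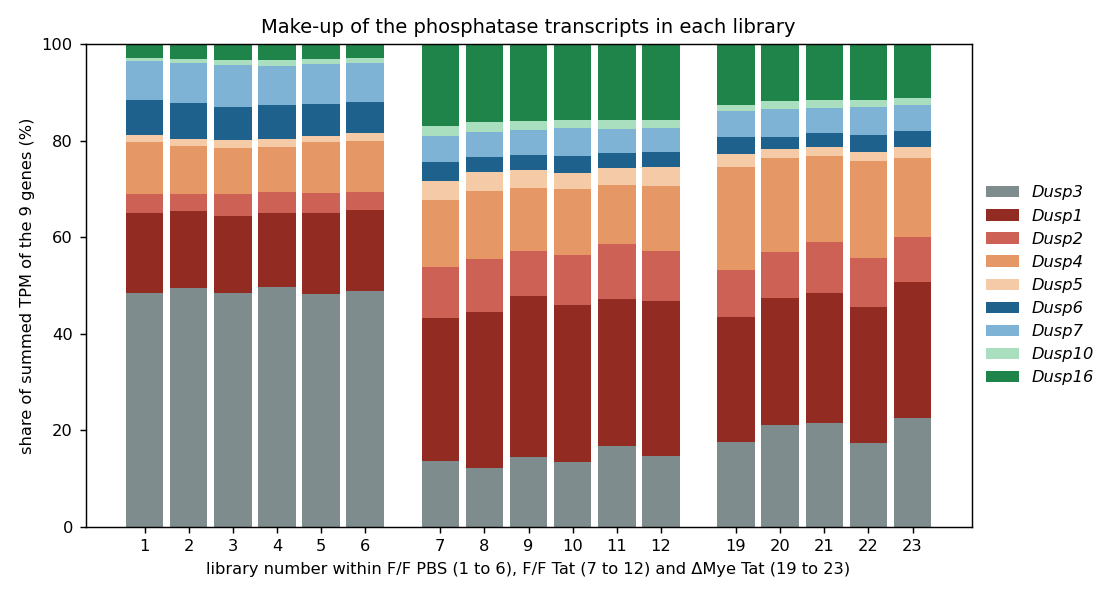
Share of each of the 9 genes in their summed TPM (vertical axis, percent) in every library (horizontal axis, by library number) of F/F PBS (1 to 6), F/F Tat (7 to 12) and ΔMye Tat (19 to 23). Dusp3 (grey) takes 48.2% to 49.6% in F/F PBS and 12.2% to 16.8% in F/F Tat, and Dusp4 (orange) is widest in ΔMye Tat.

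The second comparison asked how the genes differed under Tat between ΔMye and F/F macrophages. It shares the F/F Tat libraries with the first, so a chance deviation of that group moves a gene in opposite directions in both, and the values are set side by side with no test of their relation. Dusp5, Dusp16, Dusp10 and Dusp1 were lower in ΔMye Tat than in F/F Tat (4 of 9, against 8.87% of all tested genes), and Dusp4 and Dusp3 were higher (2 of 9, against 38.8%). None passed a fold change over 3 in either direction, as 0.44% of all tested genes did higher and 0.316% lower, and none did after scaling (0.258% and 0.603%). After median-ratio scaling 7 of 9 were lower, with Dusp2, Dusp6 and Dusp7 added, against 18.8% of all tested genes, and Dusp4 was the 1 of 9 higher, against 16.4%. The median log2 fold change of the 9 genes was -0.18 (-0.39 after scaling), against 0.22 (0.01) for all tested genes.

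Dusp5 differed most. The ΔMye Tat libraries read 6.27, 4.31, 4.14, 4.17 and 4.42 TPM, against 7.52 to 9.34 in F/F Tat. All 5 were below every F/F Tat library and above every F/F PBS library (2.81 to 3.03), with 1 library, number 19, nearer to F/F Tat than the rest. The difference was -0.86 on the log2 scale (standard error 0.10, adjusted p = 5.22e-07, limma), -1.08 after scaling and -0.97 without library 19.

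The phosphatases of JNK and p38 were lower too. Dusp16 was 28.2, 25.9, 25.5, 24.9 and 22.8 TPM in ΔMye Tat, against 34.1 to 38.6 in F/F Tat. These libraries lay between the F/F groups and much nearer to F/F Tat, with a difference of -0.51 (standard error 0.06, adjusted p = 5.80e-07, limma), or -0.73 after scaling. Dusp10 was 2.63, 3.64, 3.48, 2.98 and 2.94 TPM, against 3.65 to 5.14 in F/F Tat. Its highest ΔMye library and its lowest F/F Tat library almost touched. The difference of -0.47 (standard error 0.14, adjusted p = 0.00825, limma; -0.68 after scaling) rests on little margin, since its adjusted p rose over 0.01 when any 1 of 8 libraries was left out (F/F Tat 7, 8, 9, 11 or 12, ΔMye 19, 22 or 23, up to 0.0264) and under other settings of the fit (0.0156, limma). The ratio of Dusp16 to Dusp10 was 8.25 ± 1.45 (SD, n = 5), against 8.35 ± 0.649 in F/F Tat, within the spread of either group.

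The nuclear phosphatases parted. Dusp1 was 57.6, 57.8, 58.4, 60.6 and 56.8 TPM in ΔMye Tat, a narrow group that lay below all 6 F/F Tat libraries (67.6 to 74.7). Its difference was -0.30 (standard error 0.05, adjusted p = 2.43e-05, limma), or -0.52 after scaling. Dusp4 was 47.5, 42.7, 39.0, 43.0 and 33.1 TPM, above all 6 F/F Tat libraries (28.8 to 31.7). The difference was 0.43 (standard error 0.08, adjusted p = 1.22e-04, limma), which scaling reduced to 0.22 (adjusted p = 0.00686, limma). Dusp4 was thus the 1 nuclear phosphatase above F/F Tat in ΔMye Tat. The ratio of Dusp4 to Dusp1 within a library was 0.390 to 0.469 in F/F Tat and 0.583 to 0.824 in ΔMye Tat, and that of Dusp4 to Dusp5 was 3.33 to 3.90 and 7.49 to 10.3. Neither ratio overlapped between the groups, so Dusp4 stood higher relative to Dusp1 and Dusp5 in ΔMye Tat whatever the scaling. Dusp2 was 21.6, 21.1, 23.2, 21.7 and 18.99 TPM, inside or just under the F/F Tat range of 20.6 to 26.7. Its difference of -0.16 (95% interval -0.31 to -0.01, adjusted p = 0.0637, limma) was called after median-ratio scaling (-0.37, adjusted p = 1.22e-04, limma).

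Dusp3 was 38.9, 46.3, 47.1, 37.0 and 45.5 TPM in ΔMye Tat, partly above the F/F Tat range of 27.4 to 39.6. It overlapped that range in 2 libraries. The difference was 0.42 (standard error 0.08, adjusted p = 2.28e-04, limma) as deposited, and it was lost with median-ratio scaling (0.21, adjusted p = 0.0517, limma) and quantile normalization (0.27, adjusted p = 0.0122, limma). Dusp6 was 7.47, 5.39, 6.30, 7.70 and 6.60 TPM, against 7.01 to 8.96 in F/F Tat. The groups overlapped, and the difference of -0.18 (95% interval -0.38 to 0.01, adjusted p = 0.0911, limma) passed the threshold with scaling and not without it (-0.39, adjusted p = 8.45e-04, limma). Dusp7 was 12.3, 12.9, 11.2, 12.4 and 10.8 TPM, around the F/F Tat range of 11.1 to 12.5. Its difference was 0.02 (95% interval -0.10 to 0.15, adjusted p = 0.747, limma) as deposited and -0.19 after scaling (adjusted p = 0.00548, limma).

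Set against F/F PBS, the ΔMye Tat libraries had the same 6 genes higher (6 of 9, against 17.5% of all tested genes) and the same 3 lower (3 of 9, against 58.8%) as the F/F Tat libraries had. With a fold change over 3, Dusp16 was the 1 of 9 higher (4.38% of all tested genes) and 0 of 9 were lower (11.1%). After scaling Dusp2 joined it (2 of 9 higher, against 6.41%, and 0 of 9 lower, against 6.27%). With no condition on the fold, after scaling 6 of 9 were higher (34%) and Dusp3 and Dusp6 lower (2 of 9, 33.7%). The log2 fold change was 2.09 for Dusp16, 1.47 for Dusp2, 1.08 for Dusp4, 0.92 for Dusp1, 0.72 for Dusp10 and 0.65 for Dusp5, and -1.12 for Dusp3, -0.98 for Dusp6 and -0.39 for Dusp7 (0.03 after scaling). Of the 6 higher genes Dusp5 and Dusp10 were nearest to the F/F PBS level, while Dusp4 was further from it than in F/F Tat. The median over the 9 genes was 0.72, against -0.43 for all tested genes.

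In ΔMye Tat the 9 genes summed to 215.5 ± 8.08 TPM (SD, n = 5), which overlapped F/F Tat (201.98 to 222.4 against 216.4 to 235.9). The nuclear phosphatases held 58.1 ± 1.84% of this sum, within the spread of F/F Tat, but Dusp1 made up 27.1 ± 1.08% against 31.8 ± 1.44% and Dusp4 19.02 ± 1.92% against 13.3 ± 0.625%. The JNK and p38 pair held 13.2 ± 0.423%, below every F/F Tat library, and Dusp3 19.98 ± 2.44%. The order was Dusp1, Dusp3, Dusp4, Dusp16, Dusp2, Dusp7, Dusp6, Dusp5 and Dusp10. Ranges overlapped for Dusp3 and Dusp4 (Dusp3 higher in 3 of 5 libraries), Dusp16 and Dusp2 (Dusp16 higher in 5 of 5) and Dusp6 and Dusp5 (Dusp6 higher in 5 of 5).

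The MAP kinases themselves, the substrates of these enzymes, were measured beside them. The counts for them and for each list that follows are to be read against all tested genes, where Tat left 17% higher and 67.6% lower (37.1% and 38.1% after scaling). In ΔMye Tat 38.8% of them were above and 8.87% below F/F Tat (16.4% and 18.8% after scaling). Of 7 tested genes of 10 listed, 2 were higher and 4 lower with Tat (median log2 fold change -0.19, and 4 higher and 2 lower after scaling). Mapk14, which encodes p38α, a main substrate of Dusp1, fell from 52.7 ± 3.42 TPM (SD, n = 6) to 5.13 ± 0.411 (n = 6) and stood at 17.1 ± 0.567 (n = 5) in ΔMye Tat. Its log2 fold change was -3.34 with Tat (adjusted p = 9.89e-21, limma; -2.71 after scaling), and 1.72 between the genotypes under Tat (adjusted p = 2.59e-14, limma; 1.51 after scaling). As deposited Mapk14 was 10.1-fold lower with Tat, a larger change than that of any of the 9 phosphatases. After scaling Dusp16 changed more, at 3.23 on the log2 scale against -2.71 for Mapk14. Mapk9, a JNK gene, was the highest of the list with Tat at 0.39 (adjusted p = 1.38e-05, limma; 1.02 after scaling). Against F/F Tat, 2 MAP kinases were higher and 0 lower in ΔMye Tat as deposited (2 higher and 3 lower after scaling), and the lowest was Mapk11, which encodes p38β, at -0.64 (adjusted p = 0.0191, limma), which was called after scaling (-0.85, adjusted p = 0.00383, limma).

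Upstream of the MAP kinases, 3 of 6 tested MAP kinase kinases were higher and 3 lower with Tat (5 and 1 after scaling), where 17% and 67.6% of all tested genes were. Map2k1, the ERK activator, rose from 77.7 ± 2.73 TPM (SD, n = 6) to 239.9 ± 3.77 (n = 6), a log2 fold change of 1.63 (adjusted p = 3.13e-20, limma; 2.26 after scaling), and was 178 ± 7.04 (n = 5) in ΔMye Tat, -0.43 against F/F Tat (adjusted p = 9.42e-10, limma; -0.65 after scaling). It was the 1 gene of this list lower in ΔMye Tat, with 2 higher (0 higher and 3 lower after scaling). Map2k5, the ERK5 activator, was the lowest with Tat at -1.59 (adjusted p = 2.87e-13, limma; -0.97 after scaling) and the highest in ΔMye Tat at 0.29 (adjusted p = 0.00542, limma), a call lost after scaling (0.08, adjusted p = 0.376, limma). Of 15 tested MAP kinase kinase kinases, 1 was higher and 12 lower with Tat (3 and 8 after scaling, median -0.81 as deposited), and 9 were higher and 0 lower in ΔMye Tat (3 and 0 after scaling), where 38.8% and 8.87% of all tested genes were. The 1 higher as deposited was Map3k8, the kinase that couples NF-κB1 to ERK in macrophages, at 0.55 (adjusted p = 6.75e-08, limma; 1.18 after scaling). Map3k4, a kinase of the JNK and p38 branch, was the lowest at -2.43 (adjusted p = 2.22e-13, limma; -1.83 after scaling), from 5.96 ± 0.227 to 1.03 ± 0.189 TPM. Map3k10 was the highest in ΔMye Tat against F/F Tat at 0.77 (adjusted p = 3.72e-06, limma; 0.57 after scaling), and Braf the lowest at 0.18 (adjusted p = 0.146, limma; -0.03 after scaling).

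**Figure D4:**
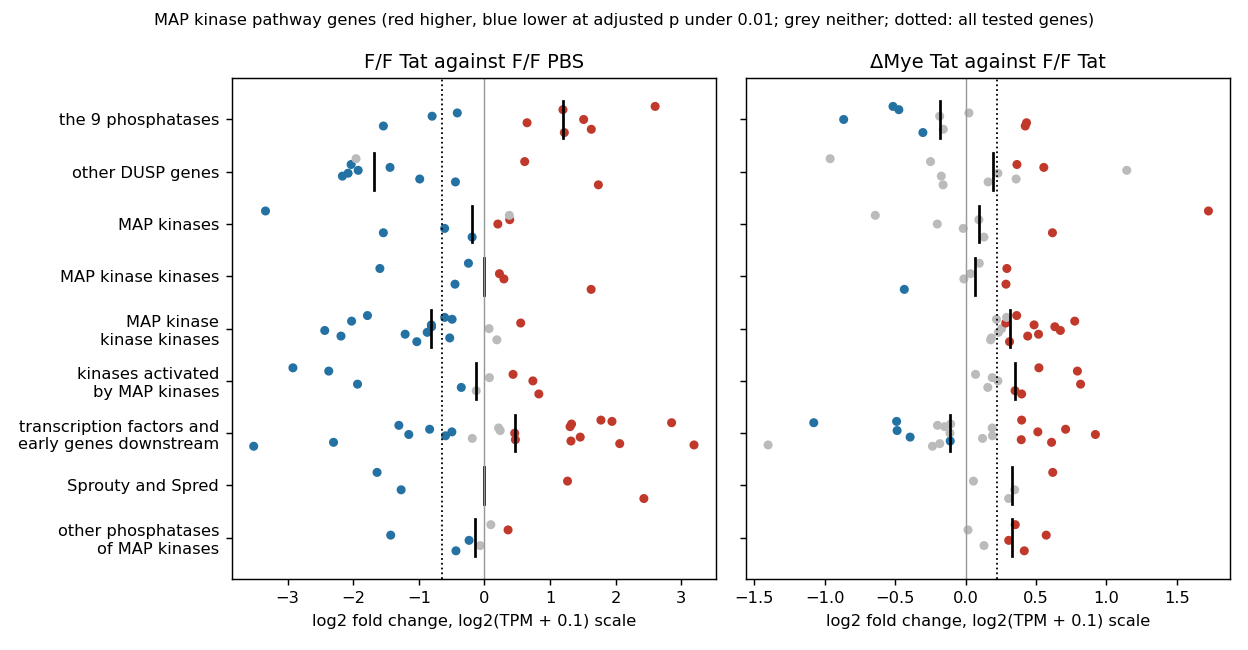
Log2 fold changes on the log2(TPM + 0.1) scale (horizontal axis) of the tested genes of 9 lists (rows) with Tat in F/F macrophages (left) and in ΔMye relative to F/F macrophages under Tat (right), each point a gene, red or blue where called higher or lower, with the list's median (black bar) and that of all tested genes (dotted). The 9 phosphatases have a median of 1.20 with Tat, against -1.68 for the other DUSP genes, and both lists were chosen with earlier results of these data known.

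Downstream, 3 of 9 tested kinases that MAP kinases activate were higher and 4 lower with Tat (6 and 3 after scaling), against 17% and 67.6% of all tested genes. Mapkapk2, the p38 target that stabilises cytokine mRNA, was the highest, at 198 ± 9.14 TPM with PBS, 352 ± 8.52 with Tat and 464 ± 26.5 in ΔMye Tat, with log2 fold changes of 0.83 (adjusted p = 3.27e-14, limma; 1.46 after scaling) and 0.40 (adjusted p = 4.83e-08, limma; 0.19 after scaling). Mknk2, a kinase of a translation initiation factor, was the lowest at -2.92 (adjusted p = 7.51e-18, limma; -2.29 after scaling). In ΔMye Tat 5 of the 9 were higher and 0 lower than in F/F Tat (5 and 1 after scaling), against 38.8% and 8.87% of all tested genes. They lay between 0.82 for Rps6ka1 (adjusted p = 1.36e-09, limma; 0.61 after scaling) and 0.07 for Rps6ka4 (adjusted p = 0.115, limma), which turned direction after scaling and was called lower there (-0.14, adjusted p = 0.00237, limma). Of 21 tested transcription factors and early genes, 11 were higher and 7 lower with Tat (14 and 5 after scaling), with a median of 0.46. Fosl1, which encodes an AP-1 subunit that ERK stabilises, was the highest at 3.20 (adjusted p = 6.47e-07, limma; 3.77 after scaling), from 1.22 ± 1.18 to 8.57 ± 1.47 TPM, and Fos, an AP-1 subunit of the immediate early class, the lowest at -3.52 (adjusted p = 4.67e-15, limma; -2.90 after scaling), from 24.9 ± 2.57 to 2.10 ± 0.388 TPM. The PBS level of Fosl1 was low and varied widely, and its fold was 9.16 on the log scale but 7.01 as a ratio of group means. In ΔMye Tat 6 of these 21 were higher and 5 lower than in F/F Tat (5 and 10 after scaling). Elk3 was the highest at 0.92 (adjusted p = 2.31e-05, limma; 0.71 after scaling). Fosl1 was the lowest at -1.40, just outside the threshold (adjusted p = 0.0101, limma) although the groups did not overlap, and was called lower after scaling (-1.61, adjusted p = 0.00439, limma). Zfp36, whose protein destabilises cytokine mRNA and is inactivated through p38 and Mapkapk2, was picked after its values were seen. It was 47.0 ± 1.85 TPM with PBS, 181 ± 5.65 with Tat and 129 ± 5.87 in ΔMye Tat, with log2 fold changes of 1.94 (adjusted p = 2.61e-20, limma; 2.58 after scaling) and -0.49 (adjusted p = 1.84e-09, limma; -0.70 after scaling).

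The other DUSP genes listed mostly encode atypical enzymes, as Dusp3 does, while Dusp8 and Dusp9 do not. Of 17 listed genes 10 were tested, with 2 higher and 7 lower under Tat (3 and 3 after scaling), against 17% and 67.6% of all tested genes, and a median log2 fold change of -1.68 (-1.10 after scaling). Dusp8, a further phosphatase of JNK and p38, was the highest, at 0.375 ± 0.220 TPM with PBS and 1.44 ± 0.512 with Tat (log2 fold change 1.74, adjusted p = 1.86e-06, limma; 2.26 after scaling). Dusp13 was the lowest, at 1.65 ± 0.920 and 0.314 ± 0.224 TPM (-2.17, adjusted p = 0.00210, limma), and its call was lost after scaling (-1.65, adjusted p = 0.0193, limma). Both were low enough for the pseudocount to set the size of the change. In ΔMye Tat 2 of the 10 were higher than in F/F Tat and 0 lower (1 and 1 after scaling), against 38.8% and 8.87% of all tested genes. The extremes were Dusp19 (1.14, adjusted p = 0.0477, limma; 1.00 after scaling) and Styx (-0.96, adjusted p = 0.352, limma; -1.13 after scaling), neither of them called, and Styx varied widely within F/F PBS (4.02 ± 3.42 TPM).

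The gene models of the GENCODE M21 annotation (GRCm38) bear on how surely reads could be assigned. Dusp1 (chr17:26505590-26562128, minus strand) overlaps Ergic1 on the opposite strand, and 3 pseudogene or noncoding models. Dusp3 (chr11:101971143-101987013, minus strand), Dusp5 (chr19:53529109-53542431, plus strand), Dusp10 (chr1:184013302-184075636, plus strand) and Dusp16 (chr6:134715468-134792625, minus strand) also overlap genes on the opposite strand, and whether quantification used the strand is not given in the sources used here. No other gene overlaps Dusp2 (chr2:127336159-127338376), Dusp4 (chr8:34807297-34819894), Dusp6 (chr10:99263231-99267489) or Dusp7 (chr9:106368632-106375724), all on the plus strand. At most 1.18% of the 31-base sequences of any of the 9 genes (Dusp3) occur in transcripts of another gene, and 0% of those of Dusp1, Dusp2, Dusp4, Dusp5 and Dusp6. Transcripts were compared in their own direction only, so sequence shared with overlapping genes on the opposite strand was not counted.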

How the data were processed

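RNA-Seq libraries of mouse peritoneal macrophages were assigned to F/F PBS (n = 6), F/F Tat (n = 6) and ΔMye Tat (n = 5) from the sample labels. A further allele that all 3 groups share is not reported here. Per the labels and methods, the authors ran Salmon (version not given in the sources used here) with Ensembl's mouse annotation, on build mm10, and deposited TPM by gene symbol, with no stated normalization between libraries. TPM keep no read counts, so depth is unknown. The authors' own comparison used edgeR on values not used here.

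Rows at 1 TPM or more in 5 or more libraries (10451 of 21683) entered a single limma fit (version 3.58.1, R 4.3.3) of log2(TPM + 0.1) across the 3 groups, with 14 residual degrees of freedom and eBayes with trend. A call needed a Benjamini-Hochberg adjusted p under 0.01, and in a stricter form also a fold change over 3. The fit was tested on simulated data with no shift of the median gene, so that test does not bear on the choice of scaling. Alternatives were pseudocounts of 0.5 and 1, no filter, 5 TPM, median-ratio scaling over genes above 0 in all libraries, quantile normalization, fits of the compared groups, without trend or robust with array weights, an adjusted p under 0.05, and each library left out.

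The 9 genes and the gene lists were chosen with earlier results of these data known. Named besides them were Ikbkb, the highest and lowest tested gene of each list in each of the first 2 comparisons, and the 3 genes of at least 10 TPM nearest in pattern to the highest and the lowest of the 9. Markers and genes named as picked after their values were seen are exceptions. Gene models came from GENCODE M21 and promoters from RefSeq. Python 3.11.15, numpy 2.4.6, pandas 2.3.3 and matplotlib 3.10.9 were used.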

Additional observations from a re-analysis of the deposited data

Results flagged for a closer look

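In 2 of the 27 sets formed by the 9 genes and 3 groups, 1 library stood apart from the rest of its group by Dixon's criterion, which chance passes in about 1 set in 20. Dusp5 was 6.27 TPM in ΔMye Tat library 19 and 4.14 to 4.42 TPM in the other 4 libraries, a gap of 0.868 of the group's range (critical value 0.710). Dusp6 was 8.96 TPM in F/F Tat library 7 and 7.01 to 7.67 TPM in the other 5, a gap of 0.663 (critical value 0.625). Without these libraries Dusp5 was called in all 3 comparisons and Dusp6 with Tat, as with them.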

How the results depend on the processing

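For Tat against PBS in F/F macrophages, 1 of the 9 genes was lower with median-ratio scaling and 1 with quantile normalization, against 3 as deposited. Between the genotypes under Tat, 1 was higher and 7 were lower with either. With a fold change over 3 the counts were 2 higher and 0 lower with Tat in F/F macrophages, 0 and 0 between the genotypes, and 1 and 0 between ΔMye Tat and F/F PBS. Alternatives to these stricter counts were chosen after seeing the data. With Tat in F/F macrophages 5 were then higher after median-ratio scaling, 4 after quantile normalization, and 1 and 1 with pseudocounts of 0.5 and 1, and 0 to 1 lower with libraries left out (Dusp3, without Tat library 11). Between ΔMye Tat and F/F PBS 2 were higher after either scaling. Dusp7 turned direction under both scalings, to 0.21 and 0.21 with Tat in F/F macrophages, -0.19 and -0.19 between the genotypes, and 0.026 and 0.020 between ΔMye Tat and F/F PBS. With libraries left out in turn its difference between the Tat groups ranged from -0.0042 (without ΔMye library 20, adjusted p = 0.960, limma) to 0.059 (without library 23). The cause was not tested. With each library left out, 3 to 4 genes were lower in ΔMye Tat than in F/F Tat, where Dusp10 dropped out, and the other 5 counts stayed as reported. Of 699 values of single genes under alternatives, 674 kept direction and side of the threshold, 14 lost and 4 gained the call, and 7 reversed. A filter at 5 TPM removed Dusp10, which has no value there. The groups share no library numbers, and the labels do not say whether F/F PBS and F/F Tat cells came from the same mice. No paired analysis was made. Without read counts, changes of genes near 1 TPM, such as Dusp10 and Dusp8, cannot be given a counting error.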

Other observations

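Sprouty and Spred proteins restrain the same ERK pathway upstream of the phosphatases. Of 4 tested genes (7 listed), 2 were higher and 2 lower with Tat, also after scaling, where 17% and 67.6% of all tested genes were (37.1% and 38.1% after scaling). Spry1 rose from 0.519 ± 0.102 TPM (SD, n = 6) to 3.20 ± 0.252 (n = 6), a log2 fold change of 2.43 (adjusted p = 6.71e-13, limma; 2.99 after scaling), and was 3.99 ± 0.447 (n = 5) in ΔMye Tat. Spred2 fell by 1.64 (adjusted p = 2.68e-11, limma; -1.02 after scaling) and was higher by 0.62 in ΔMye Tat than in F/F Tat (adjusted p = 1.36e-04, limma; 0.41 after scaling), the 1 gene of this list called there, where 38.8% of all tested genes were higher and 8.87% lower. Spred1, the lowest in that comparison at 0.06 (adjusted p = 0.474, limma; -0.16, adjusted p = 0.0136, after scaling), had risen from 19.7 ± 1.31 to 47.6 ± 3.59 TPM with Tat.

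Among 6 tested serine/threonine and tyrosine phosphatases that also act on MAP kinases (9 listed), 1 was higher and 3 lower with Tat (5 and 1 after scaling), and 4 were higher and 0 lower in ΔMye Tat than in F/F Tat (2 and 1 after scaling). The shares of all tested genes were 17% and 67.6% with Tat (37.1% and 38.1% after scaling) and 38.8% and 8.87% between the genotypes (16.4% and 18.8%). Ppp2ca, a catalytic subunit of protein phosphatase 2A, was the highest with Tat at 0.36 (adjusted p = 1.20e-09, limma; 0.99 after scaling) and differed by 0.02 between the Tat groups (adjusted p = 0.658, limma), or -0.20 after scaling, where it was called (adjusted p = 0.00105, limma). Ppm1d, a p53-induced phosphatase of p38, fell by 1.43 (adjusted p = 5.08e-10, limma; -0.81 after scaling) and was higher by 0.57 in ΔMye Tat (adjusted p = 4.79e-04, limma; 0.37 after scaling). Of the DUSP genes too low to test, Dusp9, an ERK phosphatase, was 0.727 to 1.18 TPM in F/F PBS, 0.0257 to 0.166 in F/F Tat and 0.101 to 0.201 in ΔMye Tat, and Dusp14 was at most 0.277, 1.85 and 0.908 TPM; both were picked after their values were seen.

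Among 6675 other tested genes of at least 10 TPM, those whose log2 fold changes in the Tat and the IKKβ comparison together lay nearest to those of Dusp16 were Phf11d (distance 0.0914), Mndal (0.0970) and Helz2 (0.106), and those nearest to Dusp3 were Ints3 (0.00305), Rere (0.00882) and Naxd (0.0195). Distances are Euclidean over 2 values from 3 groups.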
